A study of Mus musculus with 23 samples.

Results

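The comparison set 2 kinds of mouse embryonic fibroblast that should both lack p53 against each other, and asked how far they differed. Of the 23 arrays in the series, 6 belong to it: 3 titled LSL-WT with Empty virus, here called LSL-WT Empty, and 3 titled Null with Cre virus, here called Null Cre. They were taken by title, and no measured value chose them. LSL-WT Empty cells carry a p53 LSL-WT knock-in allele, wild-type p53 behind a stop cassette flanked by recombination sites, and received an adenovirus without Cre (title numbers 1, 2 and 3). Null Cre cells carry a p53 null allele and received an adenovirus that expresses Cre recombinase (title numbers 2, 3 and 4), and the genotype label of array 4 alone adds the word knock-in. All 6 carry the H-Ras V12 oncogene delivered by retrovirus. The background strain is 129/Sv for the 3 Null Cre arrays and for LSL-WT Empty array 2, and a mixture of 129/Sv and C57BL6 for LSL-WT Empty arrays 1 and 3.

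Allele, virus and, in part, strain therefore differ together between the groups, and their shares in a difference cannot be told apart from these 6 arrays. LSL-WT Empty is the only group of the series without Cre virus. Arrays of the other groups served as a reference: LSL-WT Cre (3 arrays, the stop cassette removed), WT Cre (3 arrays, wild-type p53 without a cassette by title, of which array 3 has a genotype label that names LSL-WT) and QM Cre (3 arrays, a knock-in p53 altered in both activation domains). The labels do not say that arrays of a group came from separate embryos, so p-values measure only the spread between these samples. By strain and by Xist, the LSL-WT Cre arrays 1, 2 and 3 match LSL-WT Empty arrays 1, 2 and 3, and the residuals of equal numbers correlated (r of 0.734, 0.8 and 0.716 across genes, which are not independent replicates). The same embryos may therefore stand in both groups.

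p53 is a transcription factor that binds response elements near its target genes when DNA is damaged or an oncogene such as activated Ras is present. Its targets stop the cell cycle (Cdkn1a), drive cell death (Pmaip1, Perp, Fas) and act back on p53 itself (Mdm2). A stop cassette keeps the gene behind it silent until Cre cuts the cassette out, and a cassette that let transcription through would leave some p53 and raise such targets.

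The cells had the profile of fibroblasts. On the log2 scale used throughout, Vim lay between 14.52 and 14.65 and Col1a2 between 13.84 and 14.7 over the 6 arrays, and all 28 fibroblast and matrix genes on the array passed the level used to filter low values (4.79) on every one of the 6 arrays. Ptprc, the pan-leukocyte marker, stayed between 3.74 and 4.14, Cdh5 of endothelium between 5.29 and 6.01 and Myod1 of muscle between 5.16 and 5.39. Epithelial and neural markers were less clear. Krt5 and Epcam of epithelium read 5.57 to 6.07 and 7.19 to 7.55, and the neural marker Sox10 read 6.83 to 7.13. Of the epithelial genes, 9 of 14 passed the filter level on all 6 arrays, with a mean per array of 6.43 to 6.53 in LSL-WT Empty and 6.14 to 6.45 in Null Cre. Of the neural genes, 11 of 12 passed it, with a mean per array of 7.96 to 8.73 in LSL-WT Empty and 7.78 to 8.19 in Null Cre. The part of these lists in the results was not tested. The median intensity of an array was 60.88 to 63.02 in LSL-WT Empty and 63.53 to 64.12 in Null Cre. Xist, the RNA that coats an inactive X chromosome, exceeded a log2 level of 8 in 1 of 3 LSL-WT Empty arrays and 0 of 3 Null Cre arrays, and genes on chromosomes X and Y were left out.

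The best known direct target, Cdkn1a, is shown with its promoter because a leaking cassette would act through such elements. The stretch is chr17:29090729-29091028, plus strand, from RefSeq (GRCm38.p6), 250 bases before to 50 bases after the start site of 1 of the gene's 2 listed windows. Capitals mark a match to the consensus searched for the p53 response element, which begins 73 bases before the start site and includes a spacer. A match describes the letters and is not a shown site. The bases that follow it, tgacatgttc, miss the consensus decamer only in their first letter, so the search left them out. The element was searched on both strands as 2 consensus decamers with a spacer of 0 to 13 bases. It stood in 20 of 27025 promoters of this length (0.074%) and in 1 of the 83 members of the p53 lists that have one, Cdkn1a.
Cdkn1a: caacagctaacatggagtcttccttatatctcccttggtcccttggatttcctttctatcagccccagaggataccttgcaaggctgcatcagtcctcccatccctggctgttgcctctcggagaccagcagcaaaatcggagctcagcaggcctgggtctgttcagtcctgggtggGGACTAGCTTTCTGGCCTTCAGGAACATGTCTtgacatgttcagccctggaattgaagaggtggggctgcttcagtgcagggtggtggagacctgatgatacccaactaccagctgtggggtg

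Cdkn1a, which encodes the cyclin-dependent kinase inhibitor p21, had log2 levels of 10.25, 11.20 and 10.75 in LSL-WT Empty arrays 1, 2 and 3 and of 11.75, 11.20 and 11.19 in Null Cre arrays 2, 3 and 4. With the cassette removed, LSL-WT Cre arrays read 13.45, 14.09 and 13.42. The mean of Cdkn1a was thus not higher in LSL-WT Empty than in Null Cre, groups that differ in virus as well as allele. The difference LSL-WT Empty minus Null Cre was -0.65 (SE 0.27, 95% interval -1.22 to -0.08, limma adjusted p = 0.601). The groups touched at 11.20.

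Mdm2, the ubiquitin ligase that degrades p53 and is itself a target, read 10.44, 10.33 and 10.34 in LSL-WT Empty, 10.38, 10.42 and 10.27 in Null Cre and 13.14, 13.65 and 13.14 in LSL-WT Cre. All 6 arrays of the comparison lay within a narrow band, and the groups overlapped. The difference was 0.01 (SE 0.15, interval -0.29 to 0.32, adjusted p = 0.997), beside 2.94 (SE 0.15) for LSL-WT Cre minus LSL-WT Empty. Ccng1, a cyclin G gene induced by p53, differed by -0.19 (SE 0.13, interval -0.45 to 0.08), Zmat3, an RNA-binding target, by 0.05 (SE 0.16) and Phlda3, an inhibitor of Akt signalling, by 0.10 (SE 0.23). LSL-WT Cre exceeded LSL-WT Empty by 3.39, 2.73 and 2.98 in these genes.

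**Figure D1:**
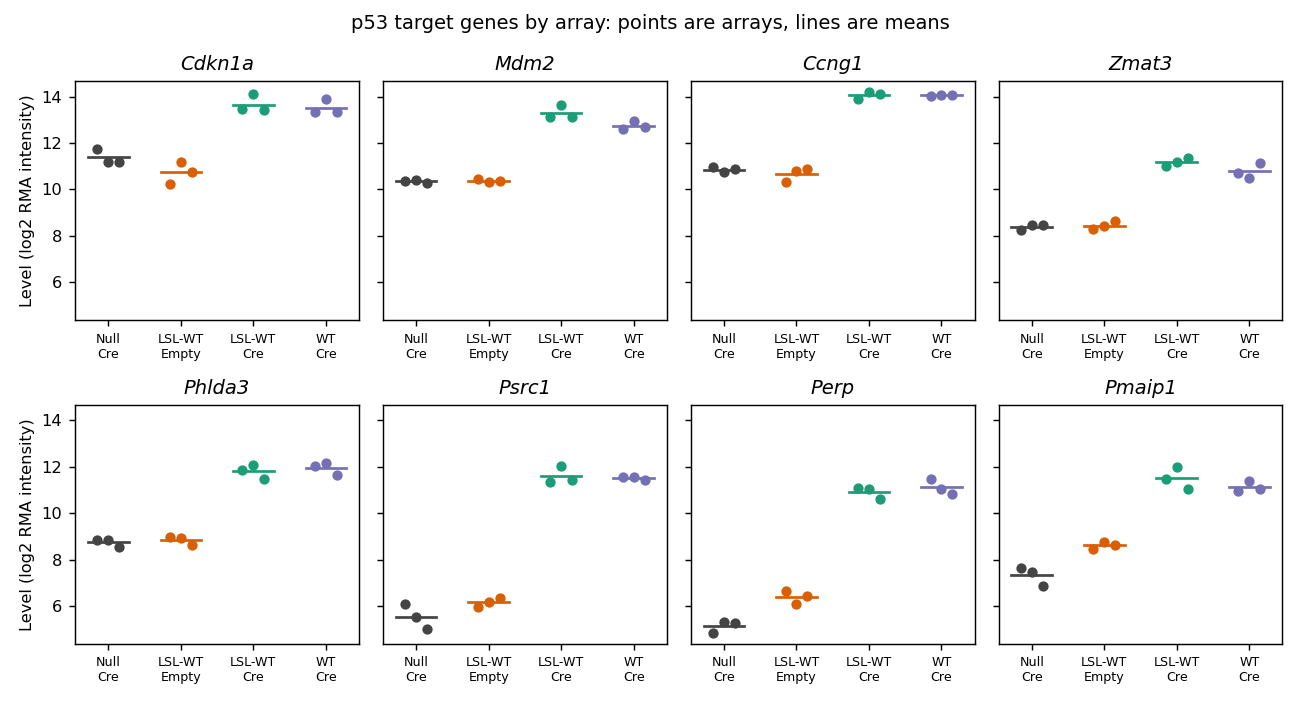
Log2 level (vertical axis) of 8 p53 target genes, 1 panel per gene, with 1 point per array and a line at the mean of each group of 3. In the panels of Cdkn1a, Mdm2, Ccng1, Zmat3, Phlda3 and Psrc1 the Null Cre and LSL-WT Empty arrays overlap, while in Perp and Pmaip1 the 3 LSL-WT Empty arrays lie above the 3 Null Cre arrays.

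A pair of apoptosis targets had the highest differences of all p53 list members, though not past the threshold of an adjusted p of 0.05. Pmaip1, the Noxa gene, a trigger of cell death, read 8.47, 8.75 and 8.63 in LSL-WT Empty and 7.63, 7.48 and 6.85 in Null Cre. The groups did not overlap, and the difference was 1.30 (SE 0.47, interval 0.30 to 2.29, limma adjusted p = 0.443). Perp, a membrane protein of p53-dependent apoptosis, read 6.65, 6.08 and 6.42 in LSL-WT Empty and 4.84, 5.32 and 5.27 in Null Cre, again without overlap (difference 1.24, SE 0.43, interval 0.33 to 2.15, adjusted p = 0.425). In QM Cre, where p53 is altered in both activation domains, Pmaip1 read 9.44, 8.96 and 8.64 and Perp 8.25, 6.68 and 6.37, so these arrays too lay above Null Cre in both genes. LSL-WT Cre arrays were higher still, at 11.02 to 11.99 for Pmaip1 and 10.61 to 11.07 for Perp.

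Fas, the death receptor, ran the other way. It read 5.48, 5.39 and 5.45 in LSL-WT Empty and 6.16, 6.16 and 6.17 in Null Cre, with a difference of -0.73 (SE 0.27, interval -1.28 to -0.17, adjusted p = 0.443). Bbc3, the Puma gene, another trigger of cell death, differed by 0.12 (SE 0.22), and its arrays overlapped. Psrc1, a microtubule-associated target with 1 of the widest ranges in the series, read 5.96, 6.16 and 6.34 against 6.08, 5.51 and 4.99, and LSL-WT Cre reached 11.35 to 12.05.

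Over the 4 p53 lists together (103 genes listed, 97 on the array, 96 of them autosomal, 95 past the filter), limma called 0 members higher and 1 lower in LSL-WT Empty at an adjusted p of 0.05. Over all 14785 genes tested, 0.0609% were called higher and 0.122% lower. At an unadjusted p under 0.05, 10 of the 95 members were higher and 9 lower, beside 527 and 544 of all 14785 genes tested. In each direction that is a larger share of the members than of all genes. The 10 were Psrc1, Perp, Pmaip1, Sulf2, Ei24, Aen, Slc19a2, Rchy1, Bid and Xpc, and the 9 were Trp53inp1, Dcxr, Cdkn1a, Fas, Thbs1, Csf1, Ier3, Sod2 and Dram1. The median difference of the 95 members was -0.01, beside 0.01 for all genes tested, with 43 above 0 and 52 below. Arrays did not overlap in 6 members above (5.8% of all genes) and 7 below (4.42% of all genes). The same members had a median of 1.14 for LSL-WT Cre minus LSL-WT Empty and of 1.04 for WT Cre minus Null Cre. Those comparisons share control arrays with this one, so the 3 medians are given only side by side.

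By role, the 24 cell cycle arrest and feedback genes had a median difference of 0.04 with 0 called, from -0.66 (Trp53inp1, a cofactor of p53) to 0.63 (Psrc1). The 18 repair, redox and metabolism genes had a median of -0.02 with 0 called. Among them Xpc, a sensor of DNA lesions, differed by 0.34 (SE 0.15), and Ephx1, an epoxide hydrolase raised strongly by p53 in the other arrays, by 0.05 (SE 0.29). Sod2, the mitochondrial superoxide dismutase, was the lowest of them at -0.60 (SE 0.15, adjusted p = 0.126). The 35 other targets had a median of -0.12 with 0 called, and reached -1.04 in Thbs1, the angiogenesis inhibitor thrombospondin. The 19 apoptosis genes had a median of -0.01 with 0 called higher and 1 lower.

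The single called member was Dram1, an autophagy gene first described as a p53 target. It read 7.81, 7.99 and 8.45 in LSL-WT Empty and 10.32, 9.02 and 9.35 in Null Cre, a difference of -1.48 (SE 0.24, adjusted p = 0.0138). LSL-WT Cre arrays, which have p53, stood at 7.91, 7.87 and 8.13, level with LSL-WT Empty. In these cells Dram1 was thus higher in the Null Cre arrays than in the LSL-WT arrays with or without the cassette. The call was lost without LSL-WT Empty array 1 or without Null Cre array 2, and then 0 members were called.

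How small a difference the data could show depends on the error of each gene. Virus and, in part, strain differ together with the allele, so an interval bounds the difference between the groups and not a leak itself. Of the 95 members, 47 were raised at least 2-fold by wild-type p53 in the 17 arrays outside the comparison. In 39 of these 47 the upper bound of the 95% interval for LSL-WT Empty minus Null Cre was under 1 on the log2 scale, a doubling. Their median difference was -0.01 (22 above 0, 25 below), while LSL-WT Cre minus LSL-WT Empty had a median of 2.38. For the other 8, among them Perp and Pmaip1, a doubling was within the interval. A miss of the threshold does not show equal levels.

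A second list was drawn from the cells themselves. In the 17 arrays outside the comparison, 255 of 14785 genes (1.72%) were higher by at least 1 in wild-type p53 arrays than in QM Cre arrays at an adjusted p of 0.05, with strain in the model, and 327 (2.21%) were lower by at least 1. The 10 with the largest rise were 1700007K13Rik, Psrc1, Ano3, Trp53inp1, 9230114K14Rik, Dcxr, Perp, Ephx1, Btn1a1 and Crct1. Their differences between LSL-WT Empty and Null Cre ran from -0.85 (Dcxr, a sugar reductase) to 1.24 (Perp), and 0 of 10 were called. 1700007K13Rik had risen by 5.45 with p53 in the 17 arrays and differed here by 0.05 (SE 0.37).

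Of the 255 raised genes, 2 (0.784%) were called higher in LSL-WT Empty and 0 lower, beside the 0.0609% and 0.122% of all genes. Their median difference was -0.02, with 119 above 0 and 136 below, and the upper bound was under 1 in 220 of 255. LSL-WT Cre minus LSL-WT Empty had a median of 1.48 in the same genes. The list used LSL-WT Cre arrays, which may share embryos with LSL-WT Empty. A list of 312 genes chosen with WT Cre as the only wild-type arrays also gave 2 calls, with a median of -0.07.

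**Figure D2:**
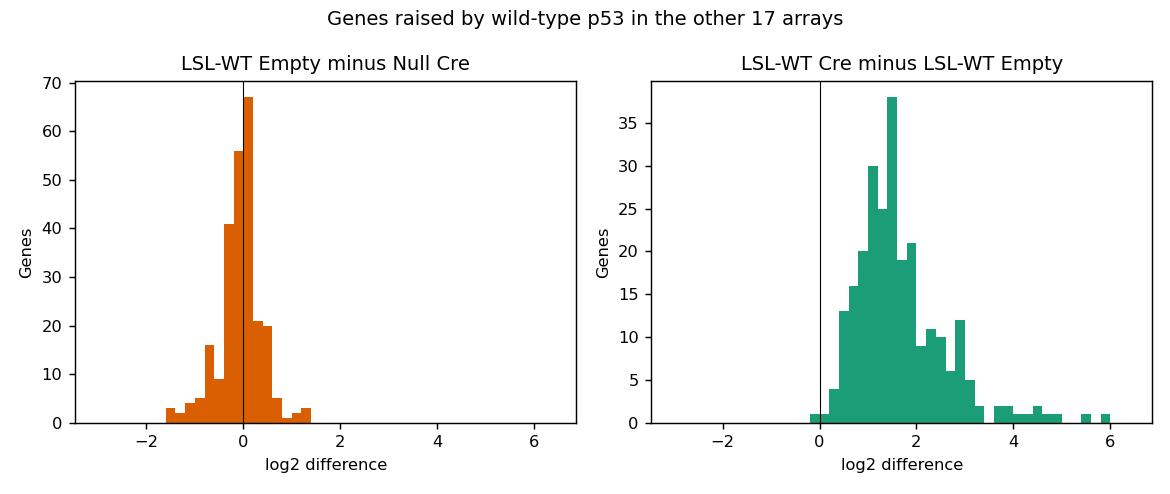
Number of genes (vertical axis) by log2 difference (horizontal axis) for the 255 genes raised by wild-type p53 in the other 17 arrays. The left panel, LSL-WT Empty minus Null Cre, centres near 0 (median -0.02), and the right panel, LSL-WT Cre minus LSL-WT Empty, lies almost wholly above 0 (median 1.48).

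The 2 called genes were Ctsh and Ano1. Ctsh, the lysosomal protease cathepsin H, read 8.96, 9.45 and 9.51 in LSL-WT Empty and 8.26, 7.89 and 7.92 in Null Cre (difference 1.28, SE 0.23, adjusted p = 0.0210). QM Cre arrays read 8.69, 8.43 and 9.13, all above Null Cre, and LSL-WT Cre arrays 9.66 to 10.21. Ano1, a calcium-activated chloride channel, read 10.96, 10.18 and 10.75 in LSL-WT Empty and 8.99, 9.62 and 9.77 in Null Cre (1.17, SE 0.23, adjusted p = 0.0377). Its QM Cre arrays, at 10.59, 10.28 and 10.24, were among the LSL-WT Empty values. In both genes the 3 Null Cre arrays were the lowest of all 23. With strain as a covariate, or with the mean over a gene's probe sets, 0 of the 255 were called. Leaving out 1 array gave 0 calls without LSL-WT Empty array 3 or Null Cre array 2, and 1 call without each of the other 4.

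Of the 327 genes lowered by p53 in the 17 arrays, 1 was called, Arhgap18 (0.306%, beside 0.0609% of all genes called higher). It was higher in LSL-WT Empty (8.05, 8.19 and 8.32) than in Null Cre (7.21, 7.43 and 7.50), by 0.81 (SE 0.15, adjusted p = 0.0237). The median of the 327 was 0.06. The call was lost without any 1 of the LSL-WT Empty arrays, without Null Cre array 2, and with strain as a covariate. Mitosis genes, which p53 lowers, showed no call in either direction among 32, with a median of 0.07, and neither did 30 replication genes (0.08). In bulk RNA, fewer cells of a kind and less RNA per cell cannot be told apart.

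Over the whole array, 27 of 14785 genes (0.183%) were called, 9 higher and 18 lower in LSL-WT Empty, and 20 of them differed at least 2-fold. At an unadjusted p under 0.05 there were 1071 (7.24%). Arrays of the groups did not overlap in any of the 27. The number rested on single arrays: 1 gene was called without Null Cre array 2, 7 without LSL-WT Empty array 1, 17 without LSL-WT Empty array 3 and 41 without Null Cre array 3. Of the 27, Mt1 kept its call without each array in turn, and the other 26 lost theirs without Null Cre array 2.

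**Figure D3:**
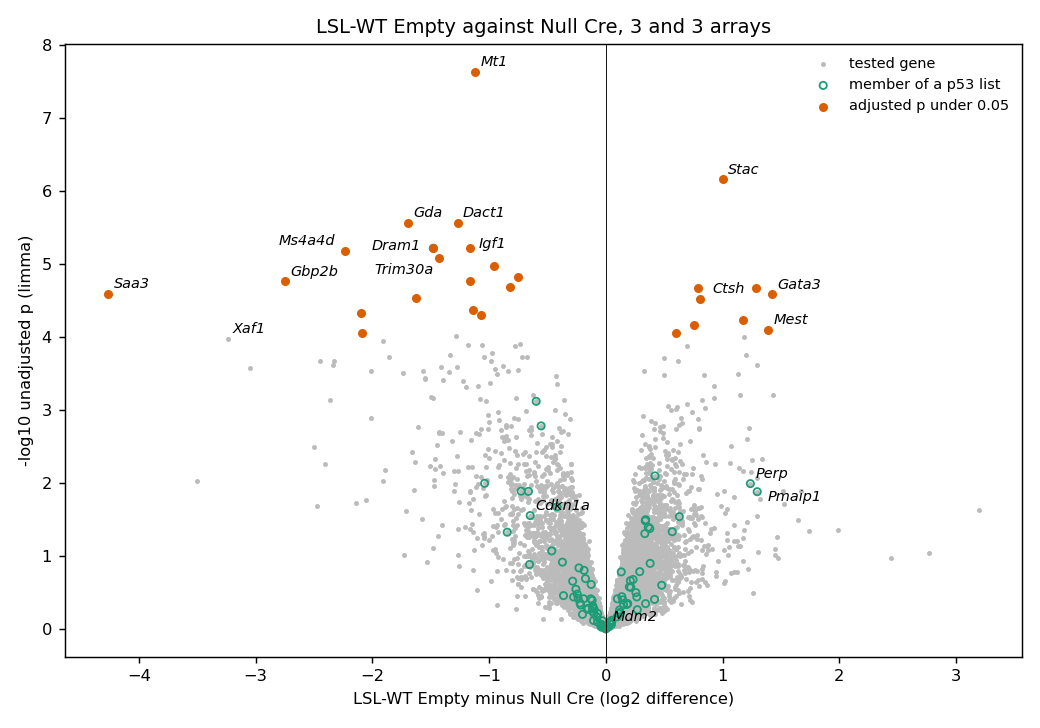
Unadjusted limma p as -log10 (vertical axis) against the log2 difference LSL-WT Empty minus Null Cre (horizontal axis) for the 14785 genes tested. The 27 genes at an adjusted p under 0.05 are filled orange, 18 of them left of 0, and members of the p53 lists (open green circles) lie mostly near 0, with Perp and Pmaip1 the farthest to the right.

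Mt1 was the gene that kept its call. It encodes metallothionein, a small protein that binds zinc and other metals. It read 13.32, 13.47 and 12.90 in LSL-WT Empty and 14.39, 14.41 and 14.24 in Null Cre. The 3 LSL-WT Empty arrays were the lowest of all 23, since the 17 arrays of the other groups lay between 14.16 and 14.75. The difference was -1.12 (SE 0.12, adjusted p = 3.42e-04). The size depended on the probe set. The gene's other probe set, looked at after the values were seen, read 7.16, 6.36 and 7.88 in LSL-WT Empty, 11.27, 12.69 and 11.43 in Null Cre and 11.28 to 13.56 in the other 17 arrays. LSL-WT Empty was again below all others there, with a difference of -4.67. The mean of the 2 probe sets gave Mt1 a difference of -2.89 (limma adjusted p = 2.27e-06), and the 129 arrays alone, with the first probe set, gave -0.88. LSL-WT Cre exceeded LSL-WT Empty by 1.26 (SE 0.12) in the first probe set, and these groups differ in both virus and p53. Only the LSL-WT Empty arrays lacked Cre virus, and no array with Empty virus and another allele is at hand, so virus and cassette cannot be told apart here. Mt2, the neighbouring metallothionein gene, differed by -0.33 (SE 0.21, adjusted p = 0.818). Over all genes tested, 23 (0.156%) had the 3 LSL-WT Empty arrays below every other array and 25 (0.169%) above, and among the 27 called genes these counts were 1 and 0.

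Most called genes instead set Null Cre apart. In 11 of the 27 the 3 Null Cre arrays were the highest of all 23 (0.609% of all genes), namely Saa3, Gbp2b, Ms4a4d, Gfra2, Chl1, Dram1, Trim30a, Dact1, Igf1, Sstr4 and Irak3. In 5 they were the lowest (0.670% of all genes): Gata3, Mest, Ctsh, Ano1 and Plxna2. The sorting into these patterns was made after the values were seen, and a called gene must in any case differ between Null Cre and LSL-WT Empty.

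**Figure D4:**
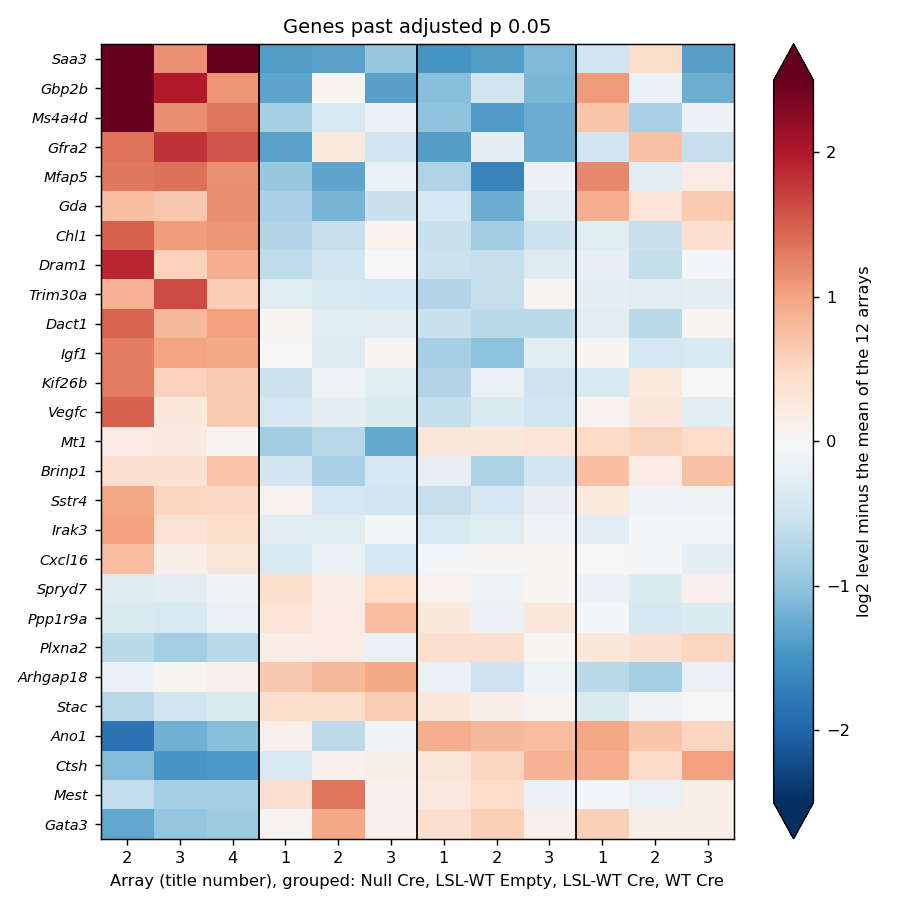
Log2 level minus the mean of the 12 arrays shown (colour, red above and blue below the mean, cut at 2.5 in each direction) for the 27 called genes (rows) on the arrays of Null Cre, LSL-WT Empty, LSL-WT Cre and WT Cre (columns, numbered as in the titles). Saa3 to Irak3 are redder in Null Cre than in the 9 other arrays for most rows, and the Mt1 row is blue in LSL-WT Empty alone.

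Saa3 and Gbp2b had the 2 largest differences among the 27 called genes in the probe sets tested. Saa3, an acute-phase serum amyloid protein that fibroblasts make in inflammation, read 7.20, 7.26 and 7.65 in LSL-WT Empty and 13.28, 9.75 and 11.87 in Null Cre. LSL-WT Cre lay at 7.13 to 7.51 and WT Cre at 7.25 to 9.05. All Null Cre arrays were higher than any other array, and they spread widely among themselves (SD 1.78). The difference was -4.26 (SE 0.78, interval -5.89 to -2.64, adjusted p = 0.0225), a 19.2-fold lower level in LSL-WT Empty. Gbp2b, an interferon-induced GTPase that attacks vacuoles of intracellular pathogens, read 4.71, 6.07 and 4.68 against 8.56, 8.01 and 7.14 (-2.75, SE 0.48, adjusted p = 0.0210). Trim30a, an interferon-induced regulator of innate immune signalling, read 4.76, 4.66 and 4.62 against 5.94, 6.69 and 5.68 (-1.43, SE 0.24, adjusted p = 0.0152). Irak3, a brake on Toll-like receptor signalling, was lower by 0.82 (SE 0.15) and Cxcl16, a chemokine, by 0.75 (SE 0.13). With the mean over its probe sets Cxcl16 differed by -0.95 and was not called (limma adjusted p = 0.0545).

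Interferons act through factors that bind an interferon-stimulated response element. The promoters of Saa3, Gbp2b and Trim30a are shown because they hold its core. Of the other immune genes named above, Irak3 has a listed promoter without the core, and Cxcl16 has no listed promoter. The core searched was GAAANNGAAA, on both strands, and capitals mark the match. It stood in 3.99% of the 27025 promoters of this length and in 3.42% of those of genes tested. Among called genes with a listed promoter it stood in 4 of 15 that were lower in LSL-WT Empty (Saa3, Gbp2b, Trim30a and Chl1) and in 0 of 8 that were higher. A match describes the letters and is not a shown site. The stretches, in GRCm38.p6 from RefSeq, are chr7:46715627-46715926, minus strand, for Saa3 (match from 125 bases before the start site), chr3:142594597-142594896, plus strand, for Gbp2b (137 bases before) and chr7:104446076-104446375, minus strand, for 1 of the 2 windows of Trim30a, whose match begins just after the start site.
Saa3: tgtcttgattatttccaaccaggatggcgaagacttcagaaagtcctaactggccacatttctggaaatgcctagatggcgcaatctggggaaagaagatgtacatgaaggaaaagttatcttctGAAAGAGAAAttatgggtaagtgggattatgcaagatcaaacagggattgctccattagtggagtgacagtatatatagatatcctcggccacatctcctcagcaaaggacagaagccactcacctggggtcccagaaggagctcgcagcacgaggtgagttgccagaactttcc
Gbp2b: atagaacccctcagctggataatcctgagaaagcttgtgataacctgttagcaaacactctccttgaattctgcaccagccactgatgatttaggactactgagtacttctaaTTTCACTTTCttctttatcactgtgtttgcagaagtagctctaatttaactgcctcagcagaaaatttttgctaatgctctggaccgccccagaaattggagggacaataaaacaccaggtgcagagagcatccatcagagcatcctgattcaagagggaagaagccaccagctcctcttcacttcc
Trim30a: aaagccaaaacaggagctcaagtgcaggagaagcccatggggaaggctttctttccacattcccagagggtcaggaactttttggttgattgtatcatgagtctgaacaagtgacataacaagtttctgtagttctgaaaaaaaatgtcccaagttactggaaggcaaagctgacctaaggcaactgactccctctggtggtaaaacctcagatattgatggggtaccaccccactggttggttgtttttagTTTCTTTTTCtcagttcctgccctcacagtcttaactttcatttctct

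The interferon response list moved 1 way in sign with few calls. All 33 tested members (of 38 listed and 34 on the array) had a lower mean in LSL-WT Empty, with a median difference of -0.81 beside 0.01 for all genes. Of these, 1 was called (Trim30a, 3.03% beside 0.122% of all genes called lower) and 0 were called higher. At an unadjusted p under 0.05, 15 of the 33 were lower, beside 544 of all 14785 genes tested. Xaf1, an interferon-induced inhibitor of survival proteins, read 5.57, 6.10 and 5.19 against 10.62, 8.80 and 7.18, a difference of -3.24 (SE 0.67) that missed the threshold (adjusted p = 0.0521). Parp14, an ADP-ribosyltransferase, differed by -1.74 (SE 0.40, adjusted p = 0.0729), and Eif2ak2, the kinase PKR that senses double-stranded RNA, by -0.54 (SE 0.16, adjusted p = 0.291).

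The level of this list depended on the array. Its mean was 8.77, 8.07 and 7.22 in Null Cre arrays 2, 3 and 4 and 6.99, 6.65 and 7.70 in LSL-WT Empty arrays 1, 2 and 3, so the groups overlapped. In 4 of the 33 members taken singly (12.1%, beside 4.42% of all genes) the LSL-WT Empty arrays lay below all Null Cre arrays. Null Cre array 2 was the highest. Without it the median was -0.46 and 29 of 33 members were below 0, and without Null Cre array 4 it was -1.18. In the other 17 arrays the list was higher in the mixed strain, with a median coefficient of 0.40. LSL-WT Empty array 2, the 129/Sv array, set as 1 array against the 3 Null Cre arrays, gave a median of -1.40. The part of strain in the list's difference was not tested. For these genes LSL-WT Cre minus LSL-WT Empty had a median of -0.08 and WT Cre minus Null Cre one of -1.14. Both share control arrays with the main comparison, so the medians are given only side by side. The 15 genes of nucleic acid sensing had a median of -0.08 with 0 called, and the 17 genes of antigen presentation -0.20 with 0 called.

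Secreted inflammatory genes were lower in sign as well, and their list means did not overlap. Of 37 tested, 32 had a lower mean in LSL-WT Empty, the median was -0.71, and in 17 (45.9%, beside 4.42% of all genes) the LSL-WT Empty arrays lay below all Null Cre arrays. Saa3 was the 1 called (2.70%, beside 0.122% of all genes called lower). Ccl2, which attracts monocytes, read 11.56, 11.35 and 12.08 against 13.27, 12.90 and 12.81 (-1.33, SE 0.29, adjusted p = 0.0643). Lif, a cytokine of the interleukin-6 family, differed by -1.41 (SE 0.32, adjusted p = 0.0722). Lcn2, an iron-trapping acute-phase protein, read 4.28, 4.35 and 4.41 against 7.35, 4.84 and 6.44 (-1.86, SE 0.40, adjusted p = 0.0643). Its LSL-WT Empty, LSL-WT Cre, WT Cre and QM Cre arrays all lay under the filter level of 4.79. Among these groups Lcn2 thus passed that level only in Null Cre, where it is high, and its difference adds no support. The list mean was 8.43, 8.29 and 8.96 in LSL-WT Empty and 9.64, 9.36 and 9.46 in Null Cre. The median stayed between -0.89 and -0.65 when each array was left out. The mean of the macrophage markers overlapped, at 5.53 to 5.71 in LSL-WT Empty and 5.51 to 5.74 in Null Cre. Only 7 of 14 passed the filter level on all 6 arrays, so low values weigh on this mean. Of the 11 tested, 3 were above 0 and 8 below, from -0.75 (Cd53) to 0.81. The part of such cells in the inflammatory list was not tested.

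**Figure D5:**
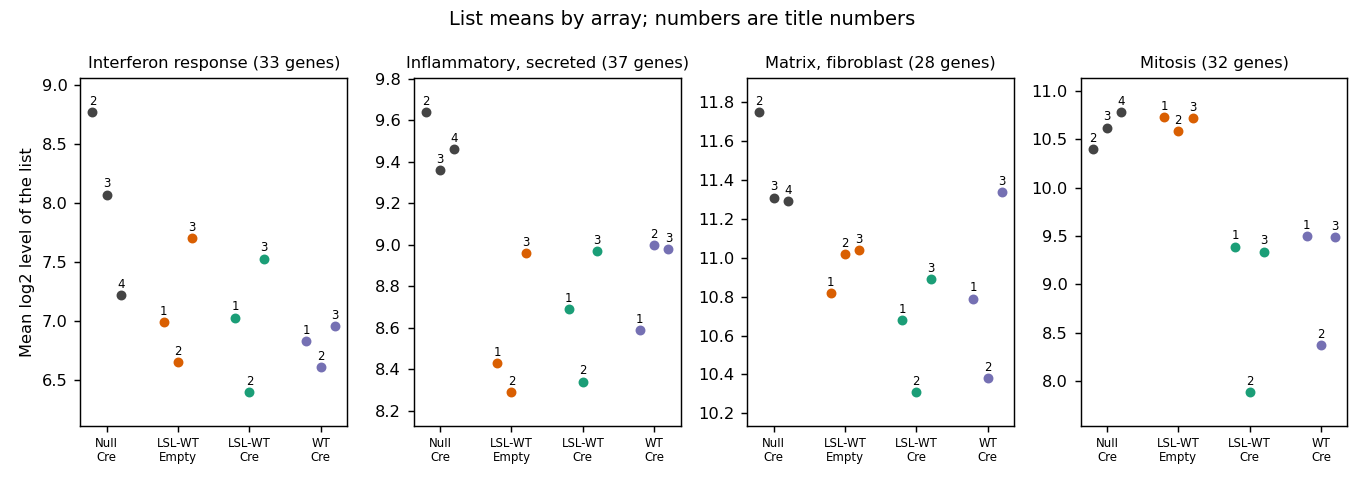
Mean log2 level (vertical axis, a separate scale for each panel) of the tested genes of 4 lists on each array of 4 groups, with the title number beside each point. The Null Cre arrays are above LSL-WT Empty in the inflammatory and matrix panels, overlap with it in the interferon and mitosis panels, and the 6 arrays with wild-type p53 are the lowest in the mitosis panel.

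Matrix and fibroblast genes were also lower in LSL-WT Empty in sign. The median of 28 was -0.40, 25 were below 0, and in 10 (35.7%, beside 4.42% of all genes) the arrays lay below Null Cre without overlap. Mfap5, a protein of elastic microfibrils, was the 1 called (3.57%, beside 0.122% of all genes called lower): 8.10, 7.73 and 8.89 against 10.37, 10.42 and 10.20 (-2.09, SE 0.42, adjusted p = 0.0484). Decorin (Dcn), a small matrix proteoglycan, read 11.75, 12.43 and 12.34 against 13.90, 13.05 and 13.10 (-1.18, SE 0.25, adjusted p = 0.0546). Lox, which crosslinks collagen, differed by -1.28 (SE 0.39, adjusted p = 0.309) and Pdgfrb, a growth factor receptor of mesenchyme, by -0.92 (SE 0.30, adjusted p = 0.342). The list mean was 10.82 to 11.04 in LSL-WT Empty and 11.29 to 11.75 in Null Cre. Without Null Cre array 2 the median was -0.27, and without LSL-WT Empty array 1 it was -0.24.

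Growth factor and signalling genes made up part of the remaining calls. Igf1, insulin-like growth factor 1, read 6.95, 6.62 and 6.97 in LSL-WT Empty and 8.22, 7.93 and 7.89 in Null Cre (-1.17, SE 0.19, adjusted p = 0.0138). Dact1, an inhibitor of Wnt signalling, was lower by 1.27 (SE 0.19, adjusted p = 0.0101) and Vegfc, a growth factor of lymphatic vessels, by 1.14 (SE 0.22, adjusted p = 0.0313). With the mean over its probe sets Vegfc differed by -1.02 and was not called (limma adjusted p = 0.0624). Gfra2, the neurturin receptor, read 5.83, 7.41 and 6.71 against 8.53, 8.98 and 8.74 (-2.10, SE 0.40, adjusted p = 0.0333). With the mean over its 5 probe sets Gfra2 differed by -0.78 and was not called (limma adjusted p = 0.0751). Ms4a4d, a membrane protein of the MS4A family, read 4.27, 4.70 and 4.95 against 7.90, 6.27 and 6.45 (adjusted p = 0.0138). Chl1, a neural cell adhesion molecule, was lower by 1.62 (SE 0.30, adjusted p = 0.0236). Its LSL-WT Empty arrays read 3.90, 4.06 and 4.72, under the filter level of 4.79. The gene's other probe sets differed by -0.32, -0.05 and 0.04. Sstr4, a somatostatin receptor, was lower by 0.96 (SE 0.16, adjusted p = 0.0175). With the mean over its probe sets Sstr4 differed by -0.54 and was not called (limma adjusted p = 0.105). Kif26b, a kinesin-like protein, was lower by 1.16 (SE 0.20, adjusted p = 0.0210). Among 25 genes of Ras and MAPK feedback, 0 were called and the median was 0.07.

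On the higher side, Gata3, a transcription factor of the T cell and epithelial lineages, read 6.48, 7.36 and 6.55 in LSL-WT Empty and 5.13, 5.45 and 5.53 in Null Cre (1.42, SE 0.26, adjusted p = 0.0225). Mest, an imprinted gene expressed from the paternal copy, read 9.26, 10.19 and 8.97 against 8.23, 8.01 and 8.01 (1.39, SE 0.28, adjusted p = 0.0469). Ppp1r9a, an imprinted gene that encodes the actin-binding protein neurabin, was higher by 0.75 (SE 0.15, adjusted p = 0.0426). With the mean over its 5 probe sets Ppp1r9a differed by 0.28 and was not called (limma adjusted p = 0.219). Plxna2, a semaphorin receptor, was higher by 0.79 (SE 0.14, adjusted p = 0.0210), and Spryd7 by 0.60 (SE 0.12, adjusted p = 0.0484). With the mean over its probe sets Plxna2 differed by 0.60 and was not called (limma adjusted p = 0.311). Of 24 imprinted genes tested, 2 were called higher and 0 lower (8.33%, beside 0.0609% of all genes called higher). Plagl1, an imprinted zinc-finger gene, read 11.24, 11.83 and 11.52 against 10.17, 10.69 and 10.33 and missed the threshold (1.13, SE 0.26, adjusted p = 0.0747). Dcn, which is also on this list, was its lowest member at -1.18 (SE 0.25, limma adjusted p = 0.0546). Of the 24, 16 were above 0 and 8 below. The median of the list was 0.14, and -0.02 without LSL-WT Empty array 2.

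The line was also compared in LSL-WT Cre against WT Cre, where both groups had Cre virus and wild-type p53. No array is shared with the main comparison, but the LSL-WT Cre arrays may come from the embryos of LSL-WT Empty, and the genotype label of WT Cre array 3 names LSL-WT, so the second pair is not independent of the first. In the fit of the 17 arrays without strain in the model, 74 genes were called (0.501%), 18 higher and 56 lower in LSL-WT Cre, and with strain as a covariate 46 were called. The lists of 27 and 74 had 2 genes in common, 7.41% of the first and 2.70% of the second. Gda, guanine deaminase, read 7.10, 6.75 and 7.35 in LSL-WT Empty, 8.65, 8.58 and 9.06 in Null Cre, 7.49, 6.66 and 7.62 in LSL-WT Cre and 8.81, 8.25 and 8.57 in WT Cre. All 6 LSL-WT arrays were thus below all 6 arrays of the lines without a cassette by title. The differences were -1.70 (SE 0.26) for LSL-WT Empty minus Null Cre and -1.29 (SE 0.27) for LSL-WT Cre minus WT Cre. Brinp1, a neural inhibitor of cell division, had the same order (-1.07, SE 0.21, and -1.05, SE 0.22). Stac, a scaffold protein of excitable cells, had the opposite one: the 6 LSL-WT arrays were the higher. LSL-WT Empty minus Null Cre had a 95% interval of 0.71 to 1.29 (limma adjusted p = 0.00503). LSL-WT Cre minus WT Cre was 0.32 (SE 0.14) and not called. Of the 27 called genes, 24 had the same sign in both pairs (88.9%, beside 55.4% of all genes tested), and of the 74 genes 49 had (66.2%).

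Genes that differed by strain in the other arrays were also examined. In the 17 other arrays 69 genes (0.467%) had a strain coefficient past the threshold, and 0 of them were among the 27. In 59 of 69 the difference LSL-WT Empty minus Null Cre had the sign of that coefficient (85.5%, beside 54.6% of all genes), and in a list of 14 genes (0.0947%) made without LSL-WT Cre it was 13. The first list used LSL-WT Cre arrays, which may share embryos with LSL-WT Empty, and strain cannot be told apart from line for most of the 6 arrays. Ang, angiogenin, read 9.08 and 9.14 in the mixed LSL-WT Empty arrays 1 and 3, 5.46 in the 129/Sv array 2 and 5.13, 5.68 and 5.53 in Null Cre. Rpgrip1, a gene of photoreceptor cilia, read 12.14 and 11.80 in the mixed arrays, 6.99 in array 2 and 6.78, 7.75 and 8.09 in Null Cre. In both genes the 129/Sv LSL-WT Empty array lay with or near Null Cre. Their differences between the groups, 2.45 (SE 1.45) and 2.77 (SE 1.56), were not called (adjusted p = 0.799 and 0.786), with the LSL-WT Empty arrays far apart. With strain as a covariate 19 genes were called, 14 of them among the 27.

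Other lists gave no calls in either direction: contractile genes (17 tested, median 0.00), cholesterol and fatty acid synthesis (20, -0.10), Hox and other positional genes (55, 0.05), DNA damage kinases and repair (26, 0.12) and antioxidant and detoxification genes (26, -0.05). Sod3, the extracellular superoxide dismutase, was the widest of the last list at -2.33 (SE 0.51, adjusted p = 0.0664). Among 13 epithelial genes 0 were called, and Krt18, a keratin of simple epithelia, read 11.71, 11.70 and 11.53 in LSL-WT Empty and 10.67, 10.75 and 10.08 in Null Cre (1.15, SE 0.28, adjusted p = 0.118). The lists of endothelial (9 tested, median 0.07), skeletal muscle (10, 0.03), neural (12, 0.36), adipocyte (5, 0.05), cartilage and bone (10, 0.08), erythroid (5, -0.13) and macrophage genes (11, -0.04) had 0 calls as well. Of the 12 neural genes, 9 were above 0.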

How the data were processed

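RNA of H-Ras V12 mouse embryonic fibroblasts was measured on 23 Affymetrix arrays, 1 per sample. The authors deposited an RMA intensity per probe set on a linear scale (RMA per the submitters' processing notes, version not given). RMA takes probe background and array differences out, so a change shared by all genes would not show. Here the values were taken to log2. Probe sets with 1 gene symbol were kept (34945 of 45037), 1 per gene by highest mean, and autosomal genes with at least 3 arrays above the 30th percentile were tested (14785). A 7-group limma 3.58.1 model (R 4.3.3, two-sided moderated test, Benjamini-Hochberg) gave LSL-WT Empty minus Null Cre, and a 5-group model with strain on the other 17 arrays gave the p53 and strain lists. LSL-WT Cre minus WT Cre was fitted on those 17 without strain. The method was tested on simulated data. The number of arrays, 3 per group, limits the precision.

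Named genes were the 15 largest rises and falls among called genes without overlap, up to 4 per list by moderated statistic, every p53 list member, the 10 genes most raised by p53, and a few genes used as checks. Among the last, Mt2 and the strain genes were chosen after their values were seen. The members and lists were chosen with earlier results of these data known. The targeted gene's own transcript and that of H-Ras were left aside (not analysed here). Alternatives were the filter, probe-set averaging, quantile normalization, median centring, the strain as a term, arrays blocked by title number, variance and array-weight options, chromosomes X and Y kept, the 6 arrays or the 129 arrays alone, and each array left out. Leaving out both number-2 arrays was chosen after seeing the data.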

Additional observations from a re-analysis of the deposited data

Results flagged for a closer look

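The difference LSL-WT Empty minus Null Cre was set against LSL-WT Cre minus WT Cre, the same pair of lines with wild-type p53, by the interaction in the limma model. The interaction also equals WT Cre minus Null Cre set against LSL-WT Cre minus LSL-WT Empty. Only the second of these changes the virus together with p53. The interaction is therefore not a difference in the response to p53 alone. Of 14785 genes, 12 passed an adjusted p of 0.05 (1152 at an unadjusted p under 0.05), and 3 of these belong to the genes named by rule. Lrp11, a lipoprotein receptor relative, had a difference between the 2 contrasts of 1.716 (SE 0.2596, adjusted p = 0.03506). It differed by 0.05 for LSL-WT Empty minus Null Cre and by -1.67 for LSL-WT Cre minus WT Cre. Msx2, a homeobox gene of limb and skull, had 1.763 (SE 0.3247, adjusted p = 0.04907), from 0.51 and -1.25 in the same order. Mt1 had -0.9268 (SE 0.175, adjusted p = 0.04907), from -1.12 and -0.19. The count was unstable: it was 1 with chromosomes X and Y kept, 234 in a fit blocked by title number, and 0 to 46 when each of the 12 arrays was left out.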

How the results depend on the processing

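With 3 arrays a group, single arrays decided most calls. In place of 27 called genes, median centring gave 49, array weights 154 (their estimation stopped before convergence), the 6 compared arrays alone 0, the 129 arrays alone 6, the title number as a replicate block 73 (25 of them among the 27) and leaving out both number-2 arrays 1. Leaving out 1 array gave 1 to 41. The groups share only the numbers 2 and 3, whose residuals correlated at 0.434 and 0.301 (other pairs -0.393 to 0.245), so the number is not treated as a pairing. Of the p53 list members, 1 called, the block gave 2 and the 6 arrays alone, the 129 arrays alone and leaving out both number-2 arrays 0, and leaving out 1 array 0 to 2. Under all 19 alternatives 0 members were called higher. Of the genes raised by p53, 2 called, the block gave 6 (2 higher, 4 lower), array weights 4 (2 and 2), and probe-set averaging, the 6 arrays alone, strain as a covariate, the 129 arrays alone and leaving out both number-2 arrays 0 each. Leaving out 1 array gave 0 to 1. Of the genes lowered by p53, 1 called, the mean filter, quantile normalization, median centring, chromosomes X and Y kept, the block and trended variances gave 2 each and array weights 3. The 6 arrays alone, strain as a covariate and leaving out both number-2 arrays gave 0, and leaving out 1 array 0 to 2. Of the strain genes, 0 called, array weights gave 2. The 74 genes of the line pair became 46 with strain as a covariate and 870 with the block. The cause of these shifts was not tested. No value changed sign: over 508 combinations of the 27 genes and an alternative, 315 kept the call, 193 lost it and 0 reversed. Mt1 was called under every alternative but the 6 arrays alone (adjusted p = 0.194).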
